A study of Mus musculus with 5 samples.

Results

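Endothelial nuclei were examined in single-nucleus RNA-seq libraries of brain nuclei sorted to enrich microglia. A nucleus was selected when it held at least 4 unique molecular identifiers (UMIs, each standing for 1 captured RNA molecule) summed over 9 genes of brain endothelium (Flt1, Cldn5, Mecom, Adgrl4, Ptprb, Slco1a4, Abcb1a, Cyyr1 and Pecam1), at most 2 UMIs of the mural genes Atp13a5, Pdgfrb and Abcc9, and at most 3 UMIs of the microglial genes P2ry12, Siglech and Gpr34. Nuclei were thus selected on their own UMI counts of these 15 genes, without regard to genotype. The selection found 116 of 9505 nuclei that passed the limits on genes, UMIs and mitochondrial UMIs, or 1.22%. The endothelial label held for only some of them. Of the 116 nuclei, 56 carried UMIs of 3 or more of the 9 genes together with other endothelial transcripts, and 60 (51.7%) carried only 1 or 2 of the 9 genes, mostly beside markers of other cell classes. The 56 are called multi-marker nuclei below and the 60 are called few-marker nuclei.

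The 5 libraries came from 1 mouse each. The 2 R241E mice were Tmem119-creERT2-cGaswt/R241E, that is, they carried 1 R241E allele of Cgas (an allele of the cytosolic DNA sensor cGAS), which Cre recombinase switches on after tamoxifen. The 3 WT mice were Tmem119-creERT2-cGaswt/wt and so shared the Cre driver. The study's methods describe young adult mice given tamoxifen, a driver that acts mainly in microglia and brain macrophages, and sorting of DAPI-positive nuclei negative for NeuN (neurons) and Olig2 (oligodendrocyte lineage). Endothelial cells were therefore neither the cells meant to carry the active allele nor the cells meant to be enriched. The study's results name Cgas WT/R241E mice as controls where the titles and methods give wild-type Cgas, and the labels give the hippocampus where the methods give the brain. The counts cannot settle either point.

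Endothelial cells line every blood vessel. In the brain they form the blood-brain barrier: tight junctions close the gaps between them, transporters such as Slc2a1 (glucose) carry nutrients, and efflux pumps such as Abcb1a return foreign molecules to the blood. Wnt/β-catenin signalling maintains this state, and arterial, capillary and venous segments differ in their transcripts. Endothelial cells carry the type I interferon receptor and face both the blood and the microglia, and interferon is known to raise MHC class I and antiviral genes in them. The comparison asked whether endothelial nuclei from R241E mice differed from those of WT mice.

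The 5 libraries together held 9748 deposited nuclei, with 4183709 to 10130667 UMIs per library. The number of selected nuclei was 48 and 29 in R241E replicates 1 and 2, and 10, 14 and 15 in WT replicates 1 to 3. Their summed depth was 239160 and 85264 UMIs in R241E, and 43756, 42053 and 37637 in the WT libraries. Of 13 barcodes that occurred in more than 1 library, 0 belonged to a selected nucleus. These few nuclei set the precision: in the multi-marker nuclei of WT replicate 1, which numbered 5 and held 10125 UMIs, 1 UMI corresponded to 98.8 CPM (UMIs of a gene scaled to 1000000 UMIs summed over the same nuclei).

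The number of the 9 genes carried by a nucleus divided the selection sharply. A single gene was found in 54 nuclei and 2 genes in 6, while 3, 4, 5 or 6 genes were found in 1, 1, 2 and 4 nuclei, and 7, 8 or 9 genes in 15, 17 and 16. A panel of 19 endothelial genes that played no part in the selection (among them Cdh5, the adhesion molecule of endothelial junctions, Tek and Tie1, the angiopoietin receptor and its relative, and the transcription factors Erg, Sox17 and Sox18) reached 4 UMIs in 56 of 56 multi-marker nuclei, with a median of 19 and a maximum of 148 UMIs. The same panel reached 4 UMIs in 6 of 60 few-marker nuclei, with a median of 0 and a maximum of 8. The few-marker nuclei were the deeper ones, with a median of 5396 UMIs (1269 to 9791) against 1959 (777 to 5923) in the multi-marker nuclei.

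**Figure D1:**
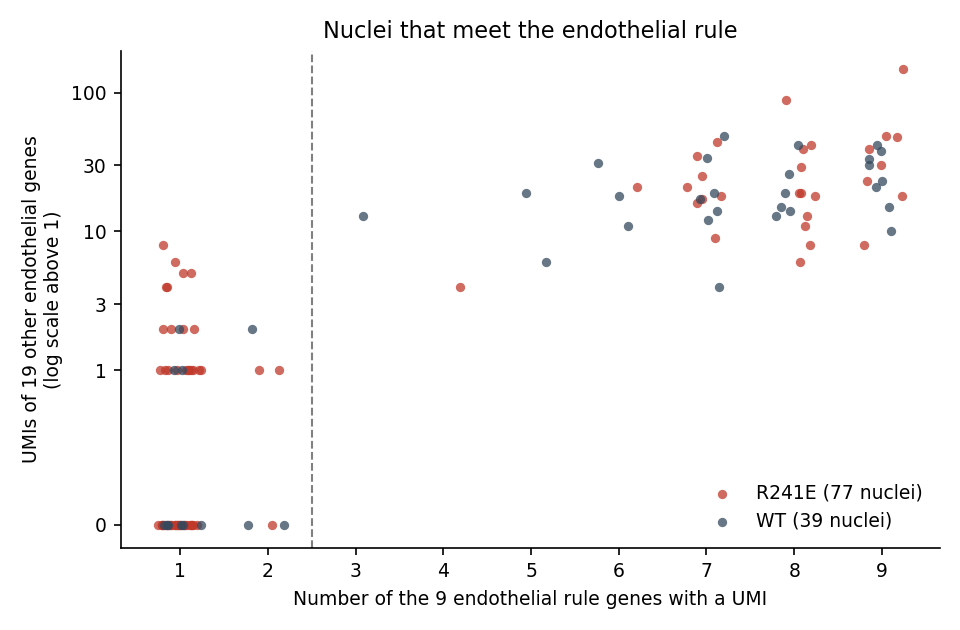
Each point is 1 of the 116 selected nuclei. The horizontal axis gives how many of the 9 genes used in the selection had a UMI, and the vertical axis the UMIs of the 19 other endothelial genes in that nucleus (red, R241E; blue, WT). Nuclei with 7 to 9 genes also carry the other endothelial genes, while the nuclei with 1 or 2 genes lie at 0 to 8 UMIs.

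Both groups of nuclei were screened with the markers of 6 other classes. At least 4 UMIs of such markers were found in 0 of 56 multi-marker nuclei and in 50 of 60 few-marker nuclei, of which 25 reached this level for fibroblast genes and 24 for astrocyte genes. Abcb1a, the efflux pump, was the leading gene of 24 few-marker nuclei, and 21 of these reached 4 UMIs of fibroblast markers. Mgp, a matrix protein that inhibits calcification, and Bnc2, a fibroblast transcription factor, stood at 3533 and 3666 CPM in them, against 48.5 and 16.2 CPM in multi-marker nuclei. Flt1, the VEGF receptor 1, led in 17 nuclei, of which 14 reached 4 UMIs of astrocyte markers. Nnat and the guidance factor Slit2 were at 9142 and 5909 CPM in them, against 32.3 and 8.08 CPM in multi-marker nuclei. Mecom, a zinc finger transcription factor, led in 14 nuclei, and 8 of these held UMIs of the pituitary hormone genes Cga, Tshb, Gh, Prl or Pomc. Chga, a protein of hormone granules, stood at 1028 CPM in them and at 0 in multi-marker nuclei. Adgrl4, Pecam1 and Slco1a4 led in the other 2, 2 and 1 nuclei.

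Near the threshold the same division was seen. Of 24 nuclei with exactly 4 UMIs of the 9 genes, 1 carried 3 or more of them, and of 59 nuclei with 3 UMIs, just outside, 0 did. Of the nuclei that failed a single limit, 22 exceeded only the mural limit, 5 only the microglial limit and 9 only the limits on genes, UMIs or mitochondrial UMIs, and these held 3, 1 and 1 multi-marker nuclei.

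The genes used in the selection are given as a description only. Over all 116 nuclei, Flt1 was detected in 62.1%, Cldn5 (claudin 5, the main tight junction protein of brain vessels) in 37.9%, Slco1a4 (an organic anion transporter) in 48.3% and Pecam1 (CD31) in 29.3%. In multi-marker nuclei these shares were 98.2%, 78.6%, 96.4% and 55.4%. Cldn5 was detected in 0 of 60 few-marker nuclei. Among all other nuclei, Cldn5 had a UMI in 0.107% and Flt1 in 3.54%. In multi-marker nuclei Flt1 stood at 5537 and 4815 CPM in R241E against 7506, 5796 and 5086 CPM in WT. Slco1a4 stood at 5401 and 6292 CPM in the 2 R241E mice and at 6123, 8422 and 3615 CPM in WT. For Cldn5 the values were 1664 and 1316 CPM in R241E and 593, 634 and 1135 CPM in WT.

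Beyond the selection genes, multi-marker nuclei were marked, with no test, by Ly6c1 (a GPI-anchored surface protein of brain capillaries), whose CPM was 946 times that of all other nuclei, by Egfl7 (a secreted protein of endothelium) with a ratio of 732, by Erg (the ETS factor of endothelial identity) with 608 and by Rasip1 (a regulator of vessel lumen formation) with 451. Dnah3, Sema3c, Rundc3b and Paqr5 followed with ratios from 255 down to 201. Ly6c1 was uneven between libraries, at 2018 and 3114 CPM in R241E and 0, 951 and 1471 CPM in WT. These groups did not overlap, as for 12.6% of all genes tested in the higher direction, and Ly6c1 was not called. Erg was similar in all libraries, at 627 and 546 CPM in R241E and 691, 725 and 630 CPM in WT. Egfl7 was at 1527 and 1766 CPM in the R241E libraries against 1877, 1992 and 2312 CPM in WT.

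Transcripts of all 3 vessel zones were present. Capillary genes had a UMI in 56 of 56 multi-marker nuclei (765 UMIs in all), arterial genes in 52 (396 UMIs) and venous genes in 39 (235 UMIs). Tfrc, the transferrin receptor of the barrier, gave 145 UMIs, Spock2, an extracellular proteoglycan, 119 and Itm2a 110. The capillary list summed to 7583 and 6420 CPM in R241E and to 5333, 6158 and 4077 CPM in WT, and 0 of its 6 tested genes were called. The sums did not overlap between the groups, which among single tested genes held for 12.6% in the higher direction. Arterial UMIs came mostly from Arl15 (186) and the chemokine Cxcl12 (111), with 18 from Vegfc, and 1 nucleus of WT replicate 1 held 19.4% of them. Arl15 stood at 7802 CPM in WT replicate 1, against 1087 and 1051 CPM in WT replicates 2 and 3 and 955 and 738 CPM in R241E. Venous UMIs were concentrated further, with 47.7% in 3 nuclei, and included those of Il1r1 (40) and Vwf, the von Willebrand factor (39). Ackr1, a chemokine receptor of venules, had 6 UMIs, all in 1 nucleus of WT replicate 3. The genes of fenestrated vessels gave 78 UMIs, of which 37 were Kdr (VEGF receptor 2, which other endothelium also expresses), while Plvap, the diaphragm protein of such vessels, had 3. The lymphatic list gave 8 UMIs, and its defining genes Prox1, Lyve1 and Mmrn1 were at 0.

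Blood-brain barrier genes were plentiful in the multi-marker nuclei of both genotypes. The 30 transport and barrier genes summed to 18275 and 16981 CPM in R241E and to 15012, 17071 and 13744 CPM in WT. Slco1c1, which imports thyroxine, stood at 2237 and 3050 CPM in R241E against 3457, 3351 and 1219 CPM in WT, and Slc2a1, the glucose transporter GLUT1, at 709 and 1284 CPM in the 2 R241E mice and at 593, 634 and 1051 CPM in WT. Junction genes summed to 7610 and 7800 CPM in R241E and to 6617, 8468 and 8742 CPM in WT. Tjp1 (ZO-1, a scaffold of tight junctions) varied little, at 1964 and 2343 CPM in the R241E libraries against 2074, 1947 and 2186 CPM in WT. The Wnt list summed to 5646 and 4879 CPM in R241E and to 5531, 5524 and 3741 CPM in WT. Lef1, a transcription factor that responds to Wnt, was at 1637 and 1284 CPM in R241E against 1481, 1404 and 967 CPM in WT.

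Selected nuclei made up a larger share of the R241E libraries, with few-marker nuclei prevailing among them in R241E replicate 1 (36 of 48) and multi-marker nuclei in R241E replicate 2 (17 of 29). Their share was 2.00% (95% exact binomial interval 1.48 to 2.64) and 2.14% (1.44 to 3.05) in R241E and 0.652% (0.313 to 1.20), 0.712% (0.390 to 1.19) and 0.668% (0.374 to 1.10) in WT, where the intervals cover counting error only. The mean was 2.07% ± 0.0987 (SD, n = 2) in R241E against 0.677% ± 0.0314 (SD, n = 3) in WT, and the groups did not overlap (difference 1.39 percentage points, exact two-sided permutation p = 0.1, the smallest p that 2 against 3 libraries allow). With at least 6 UMIs of the 9 genes in place of 4, the difference was 0.749 percentage points (exact permutation p = 0.1), and with at least 3 it was 2.05. Few-marker nuclei made up 1.498% and 0.884% of the R241E libraries and 0.326%, 0.204% and 0.134% of the WT libraries.

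Multi-marker nuclei numbered 12 and 17 in R241E and 5, 10 and 12 in WT. Their share was 0.499% and 1.25% in R241E and 0.326%, 0.509% and 0.534% in WT, so that the first R241E library lay inside the range of WT (means 0.876% ± 0.533, n = 2, and 0.456% ± 0.114, n = 3, exact two-sided permutation p = 0.3). A share of sorted nuclei also moves with the number of microglia, and the nuclei that did not meet a microglial gate numbered 1486 of 2403 and 925 of 1357 in R241E and 686 of 1534, 644 of 1965 and 998 of 2246 in WT. Among these nuclei, multi-marker nuclei made up 0.808% and 1.84% in R241E and 0.729%, 1.55% and 1.20% in WT (exact permutation p = 0.7). Per 100 mural nuclei, which numbered 200 and 189 in R241E and 38, 82 and 129 in WT, there were 6 and 8.99 multi-marker nuclei in R241E and 13.2, 12.2 and 9.30 in WT, lower in R241E and without overlap, a ratio given without a test. The mural nuclei were not screened for other classes.

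**Figure D2:**
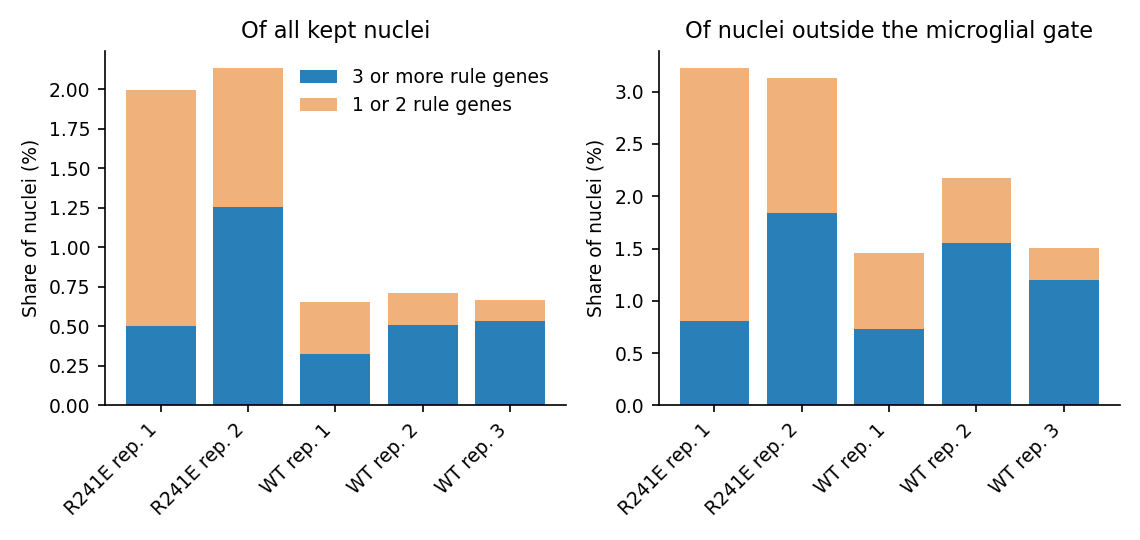
Stacked bars give, for each library, the percentage of nuclei that were multi-marker (3 or more of the 9 genes) and few-marker (1 or 2), of all kept nuclei and of the nuclei outside the microglial gate. The R241E bars are taller, and few-marker nuclei make up 75% and 41.4% of them against 50%, 28.6% and 20% in WT.

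Over all 116 nuclei, no gene passed the threshold between R241E and WT. UMIs were summed per library, since nuclei of 1 mouse are not replicates, and 0 of 973 genes tested had an adjusted p under 0.05 (0.0%, edgeR quasi-likelihood test, 29 genes with an unadjusted p under 0.05), with a median log2 fold change of 0.03 over all genes. The DESeq2 Wald test called 2 genes and limma-voom 0. The smallest p-values, and both DESeq2 calls, belonged to Gpc5, a glypican abundant in astrocytes, and Erbb4, a neuregulin receptor (adjusted p = 0.982 for both). Gpc5 was at 811 and 258 CPM in the 2 R241E mice and at 0 in the 3 WT libraries, and Erbb4 at 401 and 258 CPM in the R241E libraries against 0 in WT. Every UMI of both genes lay in few-marker nuclei. Apoe, the lipid carrier, was at 1213 and 844 CPM in R241E against 297, 238 and 239 CPM in WT (log2 fold change 2.12, SE 0.49, adjusted p = 0.982). Col8a1, a collagen found in the few-marker nuclei led by Abcb1a, was at 518 and 235 CPM in the 2 R241E mice and at 0, 0 and 106 CPM in WT.

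Genes with lower values in R241E in this comparison included endothelial ones. Slc40a1, the iron exporter ferroportin, was at 41.8 and 46.9 CPM in the R241E libraries against 251, 214 and 266 CPM in WT (log2 fold change -2.30, SE 0.74). Ptprm, a receptor phosphatase of endothelium, was at 468 and 762 CPM in R241E against 1668, 1617 and 1754 CPM in WT (log2 fold change -1.33, SE 0.46), and Tek at 167 and 235 CPM in the 2 R241E mice and at 411, 571 and 478 CPM in WT (log2 fold change -1.14, SE 0.42). Frmd4b, a scaffold protein, was at 121 and 152 CPM in the R241E libraries against 503, 476 and 531 CPM in WT. The adjusted p was 0.982 for each of these. Few-marker nuclei held 84.7% and 63.5% of the summed UMIs in R241E and 76.9%, 47.5% and 36.8% in WT, and their part in these differences was not tested. Of 12 tested genes of the pan-endothelial list 2 had a higher and 10 a lower fitted value in R241E, and of 15 barrier genes 2 and 13, with 0 called in both lists. In the multi-marker nuclei alone, described below, most tested barrier genes had higher fitted values in R241E instead, again with 0 called.

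Immune lists overlapped between the genotypes over all selected nuclei. The MHC class I list summed to 1647 and 2838 CPM in R241E and to 823, 1427 and 1700 CPM in WT, with 2 genes tested, both with higher fitted values and 0 called. B2m was at 247 and 457 CPM in R241E against 22.9, 143 and 186 CPM in WT (log2 fold change 1.75, SE 0.65, adjusted p = 0.982). It passed the filter on low counts, which a gene must pass to be tested, only through its R241E counts. The broad list of interferon-stimulated genes summed to 3893 and 5817 CPM in R241E and to 3314, 2854 and 4225 CPM in WT, with 3 genes tested and 0 called, and the receptor and signalling genes to 1359 and 1665 CPM in R241E and to 1440, 1189 and 1408 CPM in WT. Fibroblast genes, at 5992 and 8679 CPM in R241E and 457, 5017 and 8874 CPM in WT, show how far the other classes varied between libraries.

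The comparison was also run without nuclei that carried 4 or more UMIs of another class. This left 66 nuclei, and 0 of 370 genes passed the threshold (23 with an unadjusted p under 0.05). The smallest adjusted p was 0.136, for Pglyrp1, a secreted peptidoglycan recognition protein of innate immunity.

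In the 56 multi-marker nuclei, a set chosen after the data had been seen, 1 of 404 genes passed the threshold (0.248%, edgeR quasi-likelihood test, 43 genes with an unadjusted p under 0.05), with a median log2 fold change of 0.00 over all genes. The gene was Pglyrp1, at 1091 and 1124 CPM in R241E against 98.8, 136 and 210 CPM in WT. All R241E values lay above all WT values (mean 1107 ± 23 CPM, n = 2, against 148 ± 56.7 CPM, n = 3), and the log2 fold change was 2.86 (SE 0.46, adjusted p = 0.0254). The UMIs behind these values were 40 and 35 in R241E and 1, 3 and 5 in WT. They came from 9 and 9 nuclei in R241E and from 1, 3 and 3 in WT, with at most 17.9% in 1 nucleus. Pglyrp1 passed the filter on low counts only through its R241E counts, so its entry to the test depended on the group where it was high. The call did not survive the removal of any 1 of the 5 libraries, under which the adjusted p was 0.106 to 0.549 and the log2 fold change 2.68 to 3.26, nor DESeq2 (adjusted p = 0.114) or limma-voom (adjusted p = 0.387).

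The next genes by p missed the threshold. B2m, the invariant chain of MHC class I, was at 982 and 835 CPM in the 2 R241E mice and at 98.8, 226 and 294 CPM in WT (36 and 26 against 1, 5 and 7 UMIs, log2 fold change 2.07, SE 0.46, adjusted p = 0.141). Ifitm3, an interferon-induced membrane protein that blocks viral entry, was at 1064 and 1894 CPM in the R241E libraries against 0, 136 and 462 CPM in WT (log2 fold change 2.69, SE 0.64, adjusted p = 0.141), and 1 nucleus held 32.1% of its UMIs. The log2 fold change of Ifitm3 was 2.21 without R241E replicate 2, 4.09 without WT replicate 3 and 1.76 in nuclei thinned to 1000 UMIs. Cxcl12, a chemokine of arterial and capillary endothelium, was at 1582 and 995 CPM in R241E against 198, 453 and 420 CPM in WT (log2 fold change 1.84, SE 0.43, adjusted p = 0.141). For each of these 3 genes the groups did not overlap, as for 27.2% of all genes tested (12.6% higher and 14.6% lower in R241E). B2m and Ifitm3 passed the filter on low counts only because of their R241E counts.

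The 250 bases before the start of 5 genes are shown, because Pglyrp1 carried the only call, B2m and Ifitm3 had the smallest p of the tested MHC class I and interferon genes, Isg15 was nearly restricted to R241E nuclei, and Cldn5 is a barrier gene for contrast. They were taken from RefSeq (GRCm38.p6) and read 5′ to 3′ on the strand of the gene, with matches to GAAA, any 2 bases and GAAA in capitals, the core of the interferon-stimulated response element, searched on both strands with overlapping matches counted. Pglyrp1 lies on the plus strand (window chr7:18884440-18884689), B2m on the plus strand (chr2:122147437-122147686), Ifitm3 on the minus strand (chr7:141010745-141010994), Isg15 on the minus strand (chr4:156200819-156201068) and Cldn5 on the plus strand (chr16:18776597-18776846).
Pglyrp1: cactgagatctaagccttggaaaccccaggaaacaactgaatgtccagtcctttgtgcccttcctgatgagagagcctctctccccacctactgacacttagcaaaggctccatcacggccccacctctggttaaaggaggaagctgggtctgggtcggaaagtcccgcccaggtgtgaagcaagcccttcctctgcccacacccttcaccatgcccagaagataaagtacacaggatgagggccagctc
B2m: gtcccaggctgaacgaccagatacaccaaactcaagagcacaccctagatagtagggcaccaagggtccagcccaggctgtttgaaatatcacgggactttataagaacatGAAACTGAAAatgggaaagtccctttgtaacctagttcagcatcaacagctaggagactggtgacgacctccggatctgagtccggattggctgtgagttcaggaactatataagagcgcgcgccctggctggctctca
Ifitm3: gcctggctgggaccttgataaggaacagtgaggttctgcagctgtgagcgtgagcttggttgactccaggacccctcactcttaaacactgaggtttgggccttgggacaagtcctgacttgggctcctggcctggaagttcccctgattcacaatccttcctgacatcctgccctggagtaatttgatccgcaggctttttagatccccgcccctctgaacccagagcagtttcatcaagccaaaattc
Isg15: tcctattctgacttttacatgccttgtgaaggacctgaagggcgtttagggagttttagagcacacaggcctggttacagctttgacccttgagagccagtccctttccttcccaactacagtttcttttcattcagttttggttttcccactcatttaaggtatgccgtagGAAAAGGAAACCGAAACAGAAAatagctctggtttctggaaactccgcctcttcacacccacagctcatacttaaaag
Cldn5: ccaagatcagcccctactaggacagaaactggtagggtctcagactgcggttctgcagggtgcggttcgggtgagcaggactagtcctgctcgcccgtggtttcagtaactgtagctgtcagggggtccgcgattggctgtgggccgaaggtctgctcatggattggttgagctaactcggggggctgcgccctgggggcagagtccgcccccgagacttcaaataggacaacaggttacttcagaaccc

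The window of B2m held 1 match, whose first base lay at position -139 from the gene start, and that of Isg15 held 3 overlapping matches, at -78, -72 and -66. The windows of Pglyrp1, Ifitm3 and Cldn5 held 0, which says only that these letters are not in these windows. Among all 32851 promoter windows of this length, 978 (2.98%) held a match. Of the genes with a window, 23 of 48 in a broad list of interferon-stimulated genes had a match in any of their windows. The counts were 3 of 20 in the MHC class I list, 6 of 19 in the interferon list of the study and 1 of 7 among the selection genes. They were 0 of 23 in the barrier list and 0 of 18 in the junction list. These are counts of genes, which can have more than 1 window, while 2.98% is a share of windows. A match is a description of the letters and not a site of binding.

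MHC class I genes had higher summed levels in the multi-marker nuclei of both R241E mice than in those of any WT mouse, a description of the sums with no test. The 24 genes of presentation and peptide loading summed to 3982 and 3467 CPM in R241E and to 790, 1449 and 2228 CPM in WT, with 254 against 93 UMIs in all and no nucleus above 8.65% of them. Of the 24 genes, 20 had a higher mean CPM in R241E and 4 a lower one. The groups did not overlap for 9 of the 24 in the higher and for 1 in the lower direction, against 10.3% and 4.26% of the 11238 genes with a UMI in these nuclei, most of which are low. Only 2 were abundant enough to be tested, with 0 called. H2-D1, a classical heavy chain, was at 982 and 578 CPM in the 2 R241E mice and at 0, 272 and 757 CPM in WT, so that the groups overlapped (log2 fold change 1.03, SE 0.66, adjusted p = 0.627). H2-K1, the other classical heavy chain, was at 355 and 449 CPM in the R241E libraries against 198, 181 and 252 CPM in WT. H2-T23, a non-classical heavy chain, was at 136 and 321 CPM in R241E against 0, 45.3 and 84.1 CPM in WT, and Psme1, a proteasome activator subunit, at 218 and 225 CPM in the 2 R241E mice and at 98.8, 45.3 and 84.1 CPM in WT. Reads of H2 genes with near-identical copies may be undercounted.

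Interferon-stimulated genes were likewise higher in sum in both R241E libraries than in any WT library, without a test of the sum. The broad list, of which 61 of 64 genes were in the files, summed to 7664 and 9566 CPM in R241E and to 2469, 3577 and 5296 CPM in WT. A UMI was found for 53 of its genes, of which 41 had a higher and 12 a lower mean in R241E, and 13 did not overlap, all higher in R241E (10.3% of all genes with a UMI). The median per nucleus was 7.46 and 4.63 UMIs per 1000 in R241E and 1.61, 2.75 and 4.17 in WT, and 1 nucleus held 16.6% of the UMIs of the list. The 3 tested genes were Ifitm3, Ly6e and Ly6a, with 0 called and a median log2 fold change of 1.39. Ifitm3 and Ly6e passed the filter on low counts only because of their R241E counts, so the sign of this median is in part set by the filter. Ly6e, a GPI-anchored protein induced by interferon, was at 982 and 899 CPM in the R241E libraries against 395, 362 and 420 CPM in WT (log2 fold change 1.35, SE 0.40, adjusted p = 0.283). Ly6a (Sca-1) was at 1146 and 2408 CPM in R241E against 198, 498 and 1261 CPM in WT, where the groups overlapped (log2 fold change 1.39, SE 0.57, adjusted p = 0.438). Ly6a also marks brain endothelium, and it and Ly6c1 have close relatives with which reads may be shared. Without the 3 tested genes the list summed to 4473 and 4366 CPM in R241E and to 1877, 2581 and 3152 CPM in WT.

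Single genes of this list rested on few UMIs. Those named here were all higher in R241E, while 12 of the 53 with a UMI had a lower mean. Isg15, a ubiquitin-like modifier, had 15 and 12 UMIs in R241E and 0, 0 and 1 in WT, all in 7 nuclei (409 and 385 CPM against 0, 0 and 42.0 CPM). Bst2 (tetherin, which holds virions at the cell surface) had 8 and 10 UMIs in R241E and 1, 2 and 4 in WT. Gbp4, a guanylate-binding protein, had 8 and 8 against 0, 2 and 2 UMIs, and Iigp1, an immunity-related GTPase, 11 and 7 against 0, 0 and 3 UMIs. Usp18, which removes ISG15 from proteins, had 3 and 3 UMIs, Irf7, a transcription factor of the interferon response, 5 and 4, and Gbp2 2 and 5, all with 0 in the 3 WT libraries. These genes were too low to be tested.

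The 28 interferon genes with which the study scored microglia of these samples, and which are therefore not independent evidence, summed to 3000 and 3467 CPM in R241E and to 988, 1630 and 1345 CPM in WT. Of the 24 with a UMI, 21 had a higher and 3 a lower mean in R241E. The groups did not overlap for 11 of the 24 in the higher and for 0 in the lower direction. Of the 11238 genes with a UMI in these nuclei, most of which are low, these shares were 10.3% and 4.26%. Per nucleus the groups overlapped, with medians of 2.39 and 1.57 UMIs per 1000 in R241E and 0.322, 1.83 and 1.18 in WT, and 3 nuclei held 31.8% of the UMIs. The only tested member was called in neither direction. For the receptor and signalling genes the groups overlapped, with 2155 and 2087 CPM in R241E and 2370, 1811 and 1723 CPM in WT. Ifnar1, a chain of the type I interferon receptor, was at 136 and 161 CPM in the 2 R241E mice and at 691, 226 and 504 CPM in WT (log2 fold change -1.48, SE 0.85, adjusted p = 0.558). The cGAS-STING list summed to 682 and 706 CPM in R241E and to 494, 634 and 462 CPM in WT. Cgas itself gave 3 UMIs in the 56 nuclei (1 and 0 in R241E, 0, 1 and 1 in WT), Tmem173 (STING) gave 1, and Ifnb1 gave 0.

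**Figure D3:**
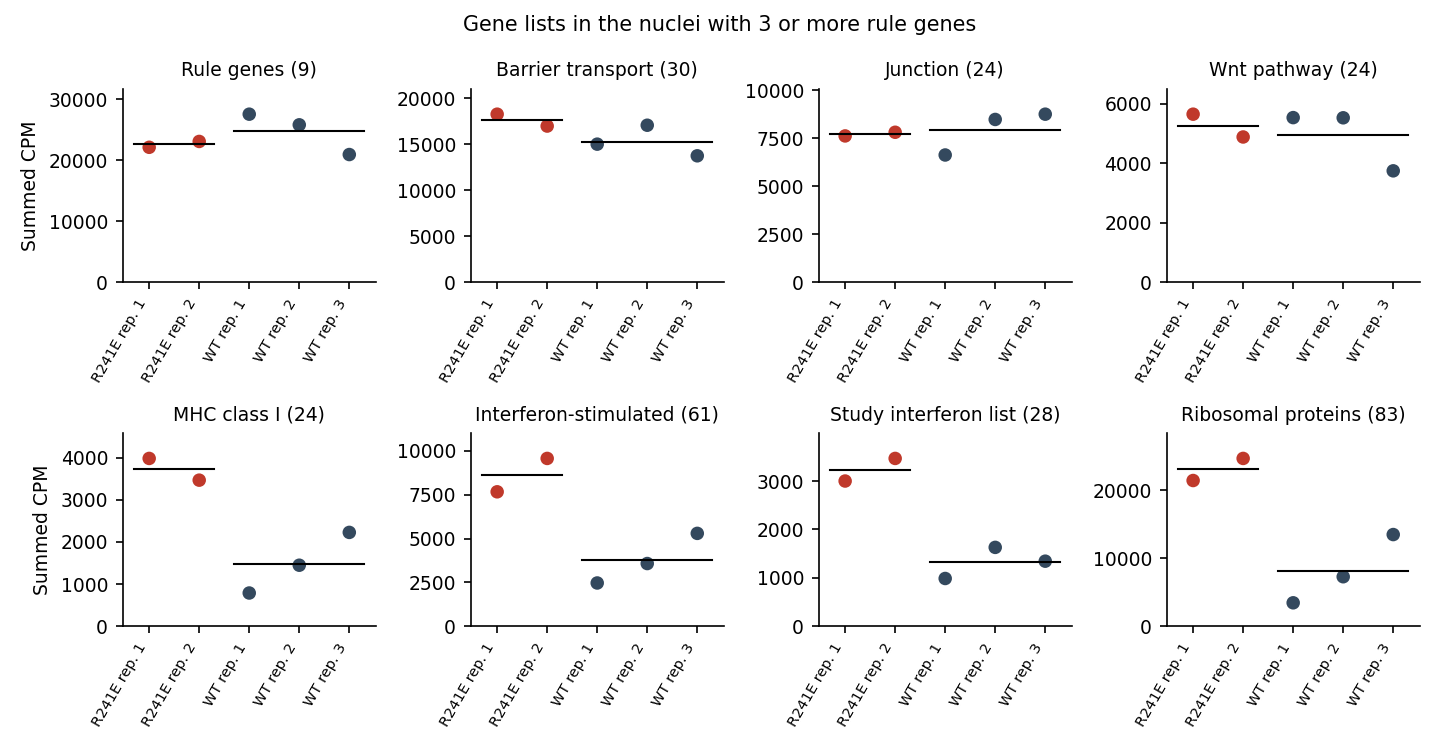
Summed CPM of 8 gene lists in the multi-marker nuclei, with 1 point for each library (red, R241E, n = 2; blue, WT, n = 3) and a black line at the mean of each group. The MHC class I and interferon lists are higher in both R241E libraries than in the 3 WT libraries, as is ribosomal protein RNA, while among the lists drawn the groups overlap for the 9 selection genes and the barrier, junction and Wnt lists.

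Ribosomal protein RNA moved with these lists. The 83 ribosomal protein genes took 2.14% and 2.47% of the UMIs of multi-marker nuclei in R241E and 0.346%, 0.729% and 1.35% in WT, and all 12 that were tested had higher fitted values in R241E (median log2 fold change 1.74, 0 called, 11 not overlapping in the higher direction, as were 12.6% of all genes tested). Rps7, for one, was at 600 and 578 CPM in the R241E libraries against 0, 45.3 and 168 CPM in WT (log2 fold change 2.79, SE 0.86, adjusted p = 0.304). Rps7 passed the filter on low counts only because of its R241E counts, so the shared direction of the 12 is in part set by the filter. The genes Gm42418 and AY036118, which overlap ribosomal RNA, took 1.09% and 1.43% in R241E and 0.277%, 0.512% and 0.828% in WT, and mitochondrial genes 0.194% and 0.135% against 0.0395%, 0.0272% and 0.0715%. The nuclear RNA Malat1 took 6.73% and 7.72% in R241E and 6.69%, 7.67% and 7.93% in WT. Within WT, ribosomal protein RNA, Pglyrp1, B2m and Ifitm3 were all lowest in replicate 1 and highest in replicate 3. The part of these RNA fractions in the interferon and MHC class I values was not tested.

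RNA of microglia was low in the same nuclei and was not higher in R241E. The 3 microglial genes of the selection, which it capped, summed to 27.3 and 32.1 CPM in R241E and to 98.8, 136 and 168 CPM in WT, and 20 other microglial genes to 818 and 803 CPM in R241E and 988, 1313 and 883 CPM in WT. The latter values were 4.03% and 3.51% of the level in the microglia of the same library in R241E, and 5.01%, 6.07% and 4.12% in WT. The MHC class I sum, by the same measure, was 124% and 112% of the microglial level in R241E and 108%, 173% and 226% in WT. Hemoglobin and other erythroid genes summed to 1679 CPM in WT replicate 1 and to 0 to 336 CPM in the other libraries.

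How many nuclei carried these transcripts was asked after thinning each nucleus to 1000 UMIs. Among all selected nuclei, the share with a UMI of the MHC class I list was 66.7% and 72.0% in R241E and 44.4%, 42.9% and 71.4% in WT (difference 16.4 percentage points, exact two-sided permutation p = 0.3), and without thinning 91.7% and 93.1% against 90.0%, 85.7% and 93.3%. For the broad interferon list the difference was 3.84 percentage points (exact permutation p = 0.9) and for the list of the study 2.55 (exact permutation p = 0.9). These values depended on the draw: with another thinning seed the differences were 5.88 percentage points for MHC class I (exact permutation p = 0.5), -6.25 for the broad list (exact permutation p = 0.4) and 15 for the list of the study (exact permutation p = 0.1, groups not overlapping). Without WT replicate 3 the MHC class I difference was 25.7 percentage points. Without thinning it was 2.70 for MHC class I and 12.3 for the list of the study. Among multi-marker nuclei, the thinned MHC class I share was 100% and 84.6% in R241E and 50%, 50% and 90.9% in WT, which overlapped (difference 28.7 percentage points, exact permutation p = 0.3), with 4 nuclei deep enough in WT replicate 1.

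Barrier, junction, Wnt and vascular signalling genes gave 0 calls in the multi-marker nuclei. Of 15 tested barrier genes 11 had higher and 4 lower fitted values in R241E (median log2 fold change 0.29), of 6 junction genes 3 and 3, of 3 Wnt genes 2 and 1, and of 11 endothelial transcription factors 6 and 5. Car4, a carbonic anhydrase of capillaries, was at 1309 and 449 CPM in R241E against 98.8, 589 and 420 CPM in WT (log2 fold change 1.19, SE 0.57, adjusted p = 0.480). Slc9a3r2, a scaffold for membrane transporters, was at 573 and 546 CPM in the 2 R241E mice and at 98.8, 272 and 378 CPM in WT (log2 fold change 1.10, SE 0.57, adjusted p = 0.509). Klf4, a transcription factor that responds to flow, was at 164 and 321 CPM in the R241E libraries against 593, 90.6 and 672 CPM in WT (log2 fold change -0.77, SE 0.85, adjusted p = 0.920). In the adhesion list Sele and Selp, the selectins of activated endothelium, and the chemokines Ccl2, Cxcl10 and Ccl5 had 0 UMIs in all 56 nuclei, which allows for each up to 3 UMIs, while Vcam1, which binds leukocytes, had 2 and 0 UMIs in R241E and 9, 0 and 10 in WT.

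Among the genes with lower values in the multi-marker nuclei of R241E, Grk5, a kinase that desensitises receptors, was at 273 and 128 CPM in R241E against 988, 860 and 546 CPM in WT (log2 fold change -1.79, SE 0.51, adjusted p = 0.283). Myo1d, an unconventional myosin, was at 245 and 482 CPM in the 2 R241E mice and at 1185, 679 and 1303 CPM in WT (log2 fold change -1.43, SE 0.49, adjusted p = 0.396), and Map4k3, a kinase of nutrient signalling, at 164 and 161 CPM in the R241E libraries against 1086, 498 and 462 CPM in WT (log2 fold change -1.83, SE 0.64, adjusted p = 0.396). The groups did not overlap for these 3 genes, as for 14.6% of all genes tested in the lower direction. On the higher side, Pltp, a phospholipid transfer protein, was at 1555 and 1669 CPM in the 2 R241E mice and at 691, 815 and 841 CPM in WT (log2 fold change 1.12, SE 0.36, adjusted p = 0.311).

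**Figure D4:**
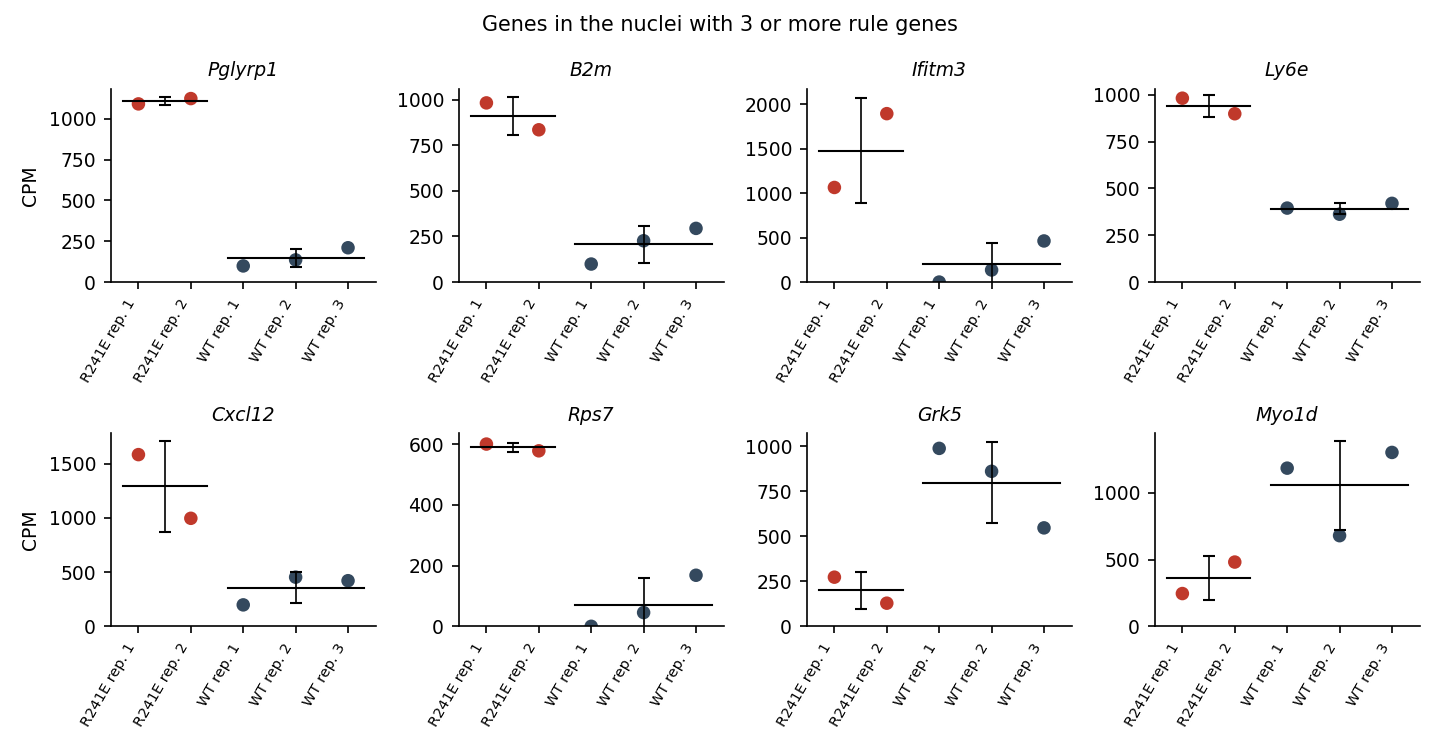
CPM of Pglyrp1, B2m, Ifitm3, Ly6e, Cxcl12, Rps7, Grk5 and Myo1d in the multi-marker nuclei, with 1 point for each library and the mean ± SD of R241E (red, n = 2) and WT (blue, n = 3). Of these genes only Pglyrp1 passed the threshold. The first 6 are higher and the last 2 lower in both R241E libraries than in any WT library, as are 12.6% and 14.6% of all genes tested.

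The response was set beside those of mural and microglial nuclei of the same libraries, which numbered 638 and 4766 by their own gates. In mural nuclei 3 of 5135 genes passed the threshold (0.0584%), and in microglial nuclei 495 of 13372 (3.70%, 339 higher and 156 lower in R241E). B2m rose in microglia by a log2 fold change of 2.14 (402 and 554 CPM in R241E, 75.7, 102 and 138 CPM in WT), beside 2.07 in multi-marker nuclei and 1.34 in mural nuclei (adjusted p = 0.968). For Ifitm3 the values were 3.73 in microglia, where it rose, 2.69 in multi-marker nuclei and 1.72 in mural nuclei (adjusted p = 0.205). Myo1d fell in microglia by 1.87 on the log2 scale, and its log2 fold change was -1.43 in multi-marker and 0.29 in mural nuclei (adjusted p = 1 in mural nuclei). Pglyrp1 was too low in mural and microglial nuclei to be tested there.

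**Figure D5:**
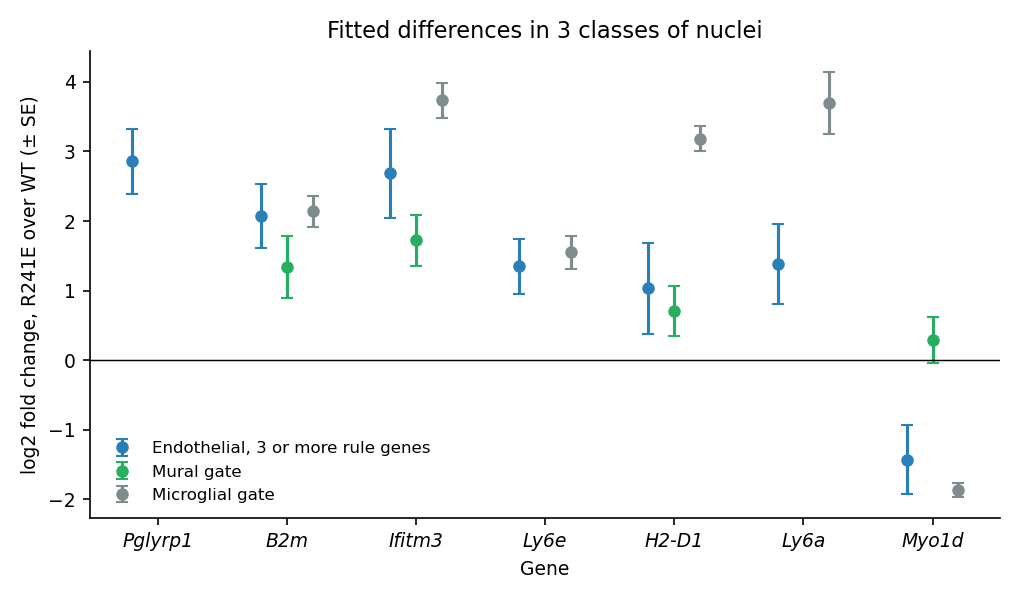
Log2 fold change (R241E over WT) with its standard error for named genes in multi-marker, mural and microglial nuclei, where a missing point stands for a gene too low to be tested in that class. B2m and Ifitm3 lie above 0 in the 3 classes, and Myo1d lies below 0 in multi-marker and microglial nuclei but not in mural nuclei.

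The difference between the responses was tested in a fit with a class by genotype term and the library as a block. Against mural nuclei, 0 of 4697 genes differed for all selected nuclei (0.0%, 127 with an unadjusted p under 0.05) and 0 of 2071 for multi-marker nuclei (0.0%, 98 with an unadjusted p under 0.05). Against microglia, 13 of 12303 genes differed for all selected nuclei (0.106%), many of them genes of few-marker nuclei, and 2 of 10679 for multi-marker nuclei (0.0187%). These were Atp10a and Vcam1. Atp10a, a lipid-transporting ATPase, was at 1036 and 1669 CPM in multi-marker nuclei of R241E and at 889, 2762 and 1429 CPM in WT. In microglia it was at 27.7 and 21.3 CPM in the R241E libraries against 3.57, 3.35 and 2.20 CPM in WT, and the difference of the responses was -3.03 on the log2 scale (SE 0.66, adjusted p = 0.0484). For Vcam1 it was -5.36 (SE 1.21, adjusted p = 0.0484), with 16.7 and 32.6 CPM in microglia of R241E and 3.96, 4.07 and 6.61 CPM in those of WT. Without 1 library the count was 0 without R241E replicate 1, R241E replicate 2 or WT replicate 3, 1 without WT replicate 2 and 5 without WT replicate 1. For Pglyrp1 the difference was 3.45 against microglia (adjusted p = 1) and 4.04 against mural nuclei (adjusted p = 0.425), so a larger response than in those classes was not shown.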

How the data were processed

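Single-nucleus libraries (10x Genomics 3′ chemistry) of 2 R241E and 3 WT mice were used, with groups and replicate numbers taken from the sample titles. The deposited values were raw UMI counts of each gene in each nucleus, made by the authors with Cell Ranger 7.0.0 against mouse build mm10. Seurat is also named in the processing notes. Whether intronic reads were counted is not given in the sources used here. A treatment text on H151 and DMSO in aged mice stands with every sample but assigns none, and was not used.

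Kept nuclei had 200 genes or more but less than 4500, less than 10000 UMIs, and a mitochondrial share below 5%. Doublets were limited only by these upper limits, and no caller was run. UMIs were summed per library over the selected nuclei and tested with edgeR 4.0.16 in R 4.3.3 (quasi-likelihood test, TMM scaling, filterByExpr, Benjamini-Hochberg adjustment over all genes tested, threshold 0.05). The filter on low counts keeps a gene that is abundant enough in as many libraries as the smaller group holds. A gene can therefore be tested through its level in 1 group alone. DESeq2 1.42.0 and limma 3.58.1 served as alternatives. Shares were compared with exact two-sided permutation tests over libraries. Per-nucleus shares were computed after thinning to 1000 UMIs, which left out shallower nuclei. CPM is the summed count of a gene scaled to 1000000 UMIs summed over the same nuclei. Floors of 3 UMIs and binomial intervals cover counting error only. The edgeR test by genotype and the interaction fit against microglia were run on simulated data. The alternative fits and the interaction against mural nuclei were not.

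The mural gate asked for at least 4 summed UMIs of Atp13a5, Pdgfrb, Abcc9, Rgs5, Kcnj8, Notch3 and Vtn and the microglial gate for at least 4 of P2ry12, Siglech and Gpr34, both with limits on the other gates' genes. Named genes were the 15 with the smallest p, the tested interferon and MHC class I genes that were called or did not overlap, the 2 of each other list with the smallest p, and, as a description, the selection genes, the 15 most enriched and the 3 highest of each vessel zone. Others named for their UMIs, level or background were chosen after their values were seen. The members, the gene lists and the tests were chosen with earlier results of these data known, and the multi-marker nuclei (3 or more of the 9 genes) after the selected nuclei had been examined. Each library is 1 mouse, so p-values measure the spread between libraries, which holds both the mice and the draw of few nuclei. Counts of replicate libraries differed by more than independent sampling of UMIs would give, and all 5 were kept apart. UMIs of a gene can be concentrated in single nuclei, so this excess cannot be credited to the mice alone. Some genes that met the naming rule are not reported here.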

Additional observations from a re-analysis of the deposited data

Results flagged for a closer look

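The genotype difference of 13 genes differed between all selected nuclei and microglia, and that of 2 genes between multi-marker nuclei and microglia (edgeR interaction, adjusted p under 0.05). Values are the log2 difference between R241E and WT in the endothelial selection minus that in microglia. Where a group was at 0 in every library the fitted value depends on the prior count and is no bound.

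It was positive for Erbb4 (12.30, adjusted p = 1.06e-05), Gpc5 (12.17, adjusted p = 5.96e-05), Lingo2 (10.86, adjusted p = 0.0276) and Nhs (3.69, adjusted p = 0.0011). The UMIs of Erbb4, Gpc5 and Lingo2 lay in few-marker nuclei, with 0 in multi-marker nuclei, and those of Lingo2 all in R241E replicate 1. Nhs overlapped in selected nuclei, at 255 and 305 CPM in R241E against 366, 95.1 and 159 CPM in WT. In microglia Nhs was lower in R241E, at 6.92 and 9.21 CPM against 59.4, 62.5 and 47.2 CPM in WT.

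It was negative for Nxph1 (-10.43, adjusted p = 0.000606), Tbxas1 (-10.04, adjusted p = 0.0011), Ccl12 (-5.41, adjusted p = 0.00537), Lhfpl3 (-5.39, adjusted p = 0.0333), Brinp3 (-4.97, adjusted p = 0.04995), Cntnap2 (-4.79, adjusted p = 0.00855), Iigp1 (-4.23, adjusted p = 0.00324), Oasl2 (-3.90, adjusted p = 0.0365) and Atp10a (-3.68, adjusted p = 0.000365). In WT replicate 1, the few-marker nuclei held 239 UMIs of Nxph1, 69 of Cntnap2, 59 of Lhfpl3 and 45 of Brinp3, where the other 2 WT libraries held 0. Iigp1 gave 14 UMIs in the same few-marker nuclei, while in multi-marker nuclei it had 11 and 7 UMIs in R241E and 0, 0 and 3 in WT. Ccl12 gave 8 and Oasl2 5 UMIs in the few-marker nuclei of WT replicate 1. These few-marker nuclei numbered 5, and 1 of them held 100 UMIs of the broad interferon list, where the others held 1 to 10. In microglia these 3 genes were higher in R241E. Ccl12 was at 134 and 151 CPM there against 8.32, 11.2 and 16.7 CPM in WT. Oasl2 was at 156 and 120 CPM against 5.15, 5.27 and 2.83 CPM, and Iigp1 at 93.2 and 99.9 CPM against 8.72, 4.79 and 0.629 CPM.

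In multi-marker nuclei the values were -3.03 for Atp10a and -5.36 for Vcam1 (adjusted p = 0.0484 for both). Vcam1 rested on 2 and 0 UMIs in R241E and 9, 0 and 10 in WT in multi-marker nuclei. In microglia it was at 16.7 and 32.6 CPM in R241E against 3.96, 4.07 and 6.61 CPM in WT.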

How the results depend on the processing

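Few nuclei limit these results: WT replicate 1 had 5 multi-marker nuclei, and 404 genes could be tested. Over all selected nuclei the count of genes called was 0, and 2 with the DESeq2 Wald test, 47 with no filter on low counts and 1 in the multi-marker nuclei. In multi-marker nuclei, where it was 1, it was 0 with the DESeq2 Wald test, limma-voom or nuclei thinned to 1000 UMIs, 3 with no filter, and 0 to 0 without each library in turn. Same-numbered libraries of the genotypes share only a number: the correlation of their deviations was 0.559 and 0.197 over selected nuclei, 0.0637 and 0.0735 over multi-marker nuclei and negative in microglia (-0.225 and -0.263). Over selected nuclei the differently numbered R241E replicate 2 and WT replicate 3 gave 0.561. With 2 R241E libraries the deviations mirror each other, so these correlations cannot decide whether libraries were paired. With the replicate block 12 genes were called over selected and 7 over multi-marker nuclei, and the median of the broad interferon list there was 2.502. The count of genes that differed from microglia, 13, was 24 with DESeq2 size factors and 8 to 29 without each library (29 without WT replicate 1). Against mural nuclei it was 0 to 5 (5 without WT replicate 1). In multi-marker nuclei these ranges were 0 to 5 against microglia and 0 to 1 against mural nuclei. The difference in thinned shares with a UMI of the interferon list of the study was 2.55 percentage points, ranged from -4.03 to 9.56 without each library, and was 15 with another thinning seed and 12.3 without thinning. That for MHC class I, 16.4, ranged from 11.4 to 25.7 without each library and was 5.88 with another seed and 2.70 without thinning. That for the broad interferon list ranged from -3.70 to 10.3, and was -6.25 with another thinning seed and -2.30 in nuclei with no microglial UMI. The difference in the share of selected nuclei, 1.39 percentage points, was 0.749 with at least 6 UMIs of the 9 genes. The causes were not tested.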
